A study of Mus musculus with 6 samples.

Results

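The pair of miR-103 and miR-107 and the miR-26 pair were followed as 4 mature miRNAs, mmu-miR-103-3p, mmu-miR-107-3p, mmu-miR-26a-5p and mmu-miR-26b-5p. They were found by their names among the miRNA probes of the array, and they are 4 of the 1247 miRNAs that the array measures. The cells were mProx24, a mouse proximal tubular epithelial line labelled as derived from C57B6, and 1 Agilent miRNA array was available for each of 6 conditions. The triple stimuli plus rapamycin culture received high glucose, palmitate and 1% oxygen after pre-treatment for 12 h with 0.4 µg/ml rapamycin, which inhibits the mTORC1 kinase complex. The triple stimuli culture received the same 3 stimuli without rapamycin. The high glucose culture received only high glucose, and its concentration is not stated in the labels. The palmitate culture received 150 µM of this saturated fatty acid with 0.15% albumin for 9 h, and the hypoxia culture was kept at 1% oxygen for 12 h. The control culture was untreated, and like high glucose and palmitate it was held at 20% oxygen. All 6 cultures were of the same single line, and no condition had a second array, so differences between 2 arrays carry no replicate check.

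A mature miRNA is cut from a hairpin precursor and guides the silencing complex to messenger RNAs, which it recognises mainly through its seed, the bases next to its 5′ end. The miR-103 and miR-107 hairpins lie in introns of the pantothenate kinase genes, whose enzymes start coenzyme A synthesis. These miRNAs repress Dicer, and in mouse liver and fat they lower insulin sensitivity through caveolin-1. They have been counted among miRNAs raised by low oxygen in cancer cell lines, and miR-103 is also a common reference in quantitative PCR. The miR-26 hairpins lie in introns of the Ctdsp phosphatase genes. miR-26a and miR-26b repress the histone methyltransferase EZH2, and in mouse liver miR-26a improves insulin sensitivity.

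The mature sequences are shown because members of a pair are almost the same molecule, which bears on how well an array can tell them apart. They are RefSeq sequences on GRCm38.p6, written 5′ to 3′ with the seed in capitals, and all 4 members matched the RefSeq table, as did 1017 of the 1247 miRNAs.
miR-103-3p: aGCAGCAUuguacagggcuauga
miR-107-3p: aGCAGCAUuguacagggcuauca
miR-26a-5p: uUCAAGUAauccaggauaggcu
miR-26b-5p: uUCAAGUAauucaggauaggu

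miR-103-3p and miR-107-3p, both 23 bases long, differ by the single substitution G22C, counted from the 5′ end. miR-26a-5p has 22 bases and miR-26b-5p has 21, and they differ by C11U and C21U and by that last base. Each seed was found in 2 of the 1679 mature mouse sequences of the table, the members themselves, so no other miRNA of the table shares these seeds.

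The hairpins below are shown because only one of their arms was measurable in these cells. Capitals mark the member, on the 3p arm of the miR-103 and miR-107 hairpins and on the 5p arm of the miR-26 hairpins.
Mir103-1: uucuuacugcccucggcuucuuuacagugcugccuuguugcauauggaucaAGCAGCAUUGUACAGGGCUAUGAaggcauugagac
Mir107: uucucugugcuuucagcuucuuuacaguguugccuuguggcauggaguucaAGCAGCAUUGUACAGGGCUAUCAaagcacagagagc
Mir26a-1: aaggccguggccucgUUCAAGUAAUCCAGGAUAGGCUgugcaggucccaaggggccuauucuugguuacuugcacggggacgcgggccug
Mir26b: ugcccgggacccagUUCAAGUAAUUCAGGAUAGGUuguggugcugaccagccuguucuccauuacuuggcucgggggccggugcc

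On GRCm38.p6 these hairpins lie at chr11:35782396-35782481 on the plus strand within the span of Pank3 (Mir103-1), at chr19:34820687-34820773 on the minus strand within Pank1 (Mir107), at chr9:119031796-119031885 on the plus strand within Ctdspl (Mir26a-1) and at chr1:74394310-74394394 on the plus strand within Ctdsp1 (Mir26b). Identical copies of mature miR-103-3p and miR-26a-5p come from Mir103-2 within Pank2, at chr2:131288052-131288137, and from Mir26a-2 within Ctdsp2, at chr10:126995530-126995613. An array of mature miRNAs cannot say which copy a molecule came from. All 6 hairpins have the strand of the gene that holds them, and the messenger RNAs of those genes were not measured here.

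The array carries 2 probes for each member. They are DNA, complementary to a stretch that runs to the 3′ end of the miRNA. That stretch starts between base 2 (miR-26b-5p longer probe) and base 8 (miR-26a-5p shorter probe). The probes are shown with the bases in capitals that face a base at which the relatives differ.
miR-103-3p longer probe: tCatagccctgtacaatg
miR-103-3p shorter probe: tCatagccctgtacaat
miR-107-3p longer probe: tGatagccctgtacaatgct
miR-107-3p shorter probe: tGatagccctgtacaatgc
miR-26a-5p longer probe: aGcctatcctgGatta
miR-26a-5p shorter probe: aGcctatcctgGatt
miR-26b-5p longer probe: AcctatcctgAattacttga
miR-26b-5p shorter probe: AcctatcctgAattacttg

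Each miR-103-3p or miR-107-3p probe has 1 mismatch to the other miRNA, near its 5′ end. The miR-26a-5p probes have 3 mismatches to miR-26b-5p, and the miR-26b-5p probes have 2 mismatches to miR-26a-5p. Any other miRNA on the array is at least 5 mismatches away. How much of a signal comes from the relative was not tested, so levels are compared between arrays for 1 probe, and not between probes.

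The number of miRNAs detected ran from 162 to 194 per array, 154 were detected on all 6 arrays, and no spot was saturated. The 75th percentile of intensity was highest for triple stimuli plus rapamycin, at 382, and lowest for the control, at 295, so each array was scaled to that percentile over 281 probes detected on all arrays. Of the 11 markers of proximal tubule and kidney, 7 were detected (the 5 miR-30 members with miR-10a and miR-10b). The tubule markers miR-204-5p, miR-215-5p, miR-192-5p and miR-194-5p were not detected, nor was any of the 5 miRNAs of the epithelial miR-200 family. Of the markers of other cell types, 0 of 3 for blood, 0 of 1 for endothelium, 0 of 2 for smooth muscle, 0 of 1 for liver and 0 of 2 for neuron were detected, and 1 of 3 for skeletal muscle, miR-206-3p. The 3 arrays at 1% oxygen were in slide row 2 and the 3 at 20% oxygen in slide row 1, so oxygen and slide row cannot be told apart.

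The deposited table of processed values and the scanner files disagreed on 2 conditions. For the 4 members, the table's palmitate column equalled the summed signal of the scanner file deposited under high glucose divided by 1 factor, within 0.1%. Its high glucose column equalled that of the scanner file deposited under palmitate in the same way. Results below follow the scanner files. If the table is right, the levels and 2-array comparisons of high glucose and palmitate would carry the other name. The comparison of arrays with and without high glucose would instead change its groups, and so its result.

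All 4 members were detected on all 6 arrays, with 100% of their spots well above background. The values that follow are scaled intensities on a linear scale, given as mean ± SD of the spots of the longer probe, which was the brighter one for every member. That SD covers spots of 1 array, of which 16 to 20 were used, and not cultures.

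miR-103-3p stood at 350.4 ± 21.6 in triple stimuli plus rapamycin, 358 ± 12.8 in triple stimuli, 367 ± 25.0 in high glucose, 369 ± 22.9 in palmitate and 378 ± 28.7 in hypoxia, against 411 ± 24.0 in the control. The control was the highest array and lay above hypoxia, the next in order, by more than 2 spot standard errors. The other 5 arrays followed each other in steps that were within 2 spot standard errors. Over several steps together, triple stimuli lay below hypoxia by more than 2 spot standard errors. The shorter probe, at 212 in triple stimuli plus rapamycin and 276 in the control, also put these arrays lowest and highest. On that probe triple stimuli minus hypoxia was within 2 spot standard errors, at a log2 difference of -0.061 (SE 0.032).

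miR-107-3p stood at 259 ± 15.5 in triple stimuli plus rapamycin, 258 ± 11.5 in triple stimuli, 273 ± 20.4 in high glucose, 280.1 ± 22.6 in palmitate and 272 ± 14.7 in hypoxia, against 290.4 ± 28.4 in the control. The control was again highest, followed by palmitate, high glucose and hypoxia in steps within 2 spot standard errors. Over those steps together, hypoxia lay below the control by more than 2 spot standard errors. The arrays with all 3 stimuli, with and without rapamycin, were the lowest, and the step down to them from hypoxia was beyond 2 spot standard errors. The shorter probe ran from 90.1 to 113, with the control highest and triple stimuli plus rapamycin lowest. On that probe high glucose, at 96.6, lay below triple stimuli, at 97.2. Triple stimuli minus hypoxia was there within 2 spot standard errors, at a log2 difference of -0.03 (SE 0.03).

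miR-26a-5p stood at 185 ± 10.3 in triple stimuli plus rapamycin, 179 ± 13.4 in triple stimuli, 165 ± 12.1 in high glucose, 186 ± 11.5 in palmitate and 180.4 ± 13.3 in hypoxia, against 194 ± 11.7 in the control. The control was highest and high glucose lowest, each apart from its neighbour by more than 2 spot standard errors. The 4 arrays between them did not differ from their neighbours beyond that error. The shorter probe also had high glucose lowest, at 111, and the control highest, at 126. On that probe hypoxia minus control was within 2 spot standard errors, at a log2 difference of -0.04 (SE 0.05).

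miR-26b-5p stood at 144 ± 11.5 in triple stimuli plus rapamycin, 164 ± 14.1 in triple stimuli, 168 ± 12.3 in high glucose, 157 ± 9.68 in palmitate and 161 ± 13.6 in hypoxia, against 147 ± 22.1 in the control. This was the only member whose control array was not its highest. High glucose was highest and triple stimuli plus rapamycin lowest, with no step between neighbours beyond 2 spot standard errors. Over several steps together, triple stimuli plus rapamycin lay below triple stimuli by more than 2 spot standard errors. On the control array the spots of this probe had a coefficient of variation of 15.0%, the largest of any member probe. The shorter probe had triple stimuli plus rapamycin lowest too, at 85.0, and hypoxia highest, at 102.

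The scanner software also sums the probes of a miRNA into 1 signal, which is given here without scaling, with the error the software reports. The summed signal of miR-103-3p was 179 ± 13.2 in triple stimuli plus rapamycin, 169.9 ± 12.4 in triple stimuli, 178 ± 13.1 in high glucose, 161 ± 11.8 in palmitate and 173 ± 12.7 in hypoxia, against 169 ± 12.3 in the control. That of miR-107-3p was highest in triple stimuli plus rapamycin, at 111 ± 8.92, and lowest in the control, at 99.2 ± 7.91, and that of miR-26a-5p was highest at 97.2 ± 7.26 and lowest at 78.8 ± 5.99 on the same arrays. miR-26b-5p had a summed signal of 72.7 ± 5.62 in triple stimuli plus rapamycin, 75.4 ± 5.82 in triple stimuli, 80.4 ± 6.18 in high glucose, 66.7 ± 5.21 in palmitate and 73.5 ± 5.65 in hypoxia, against 59.5 ± 4.72 in the control. Before scaling the control thus had the lowest signal of 3 members, and for miR-103-3p palmitate was lower still.

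**Figure D1:**
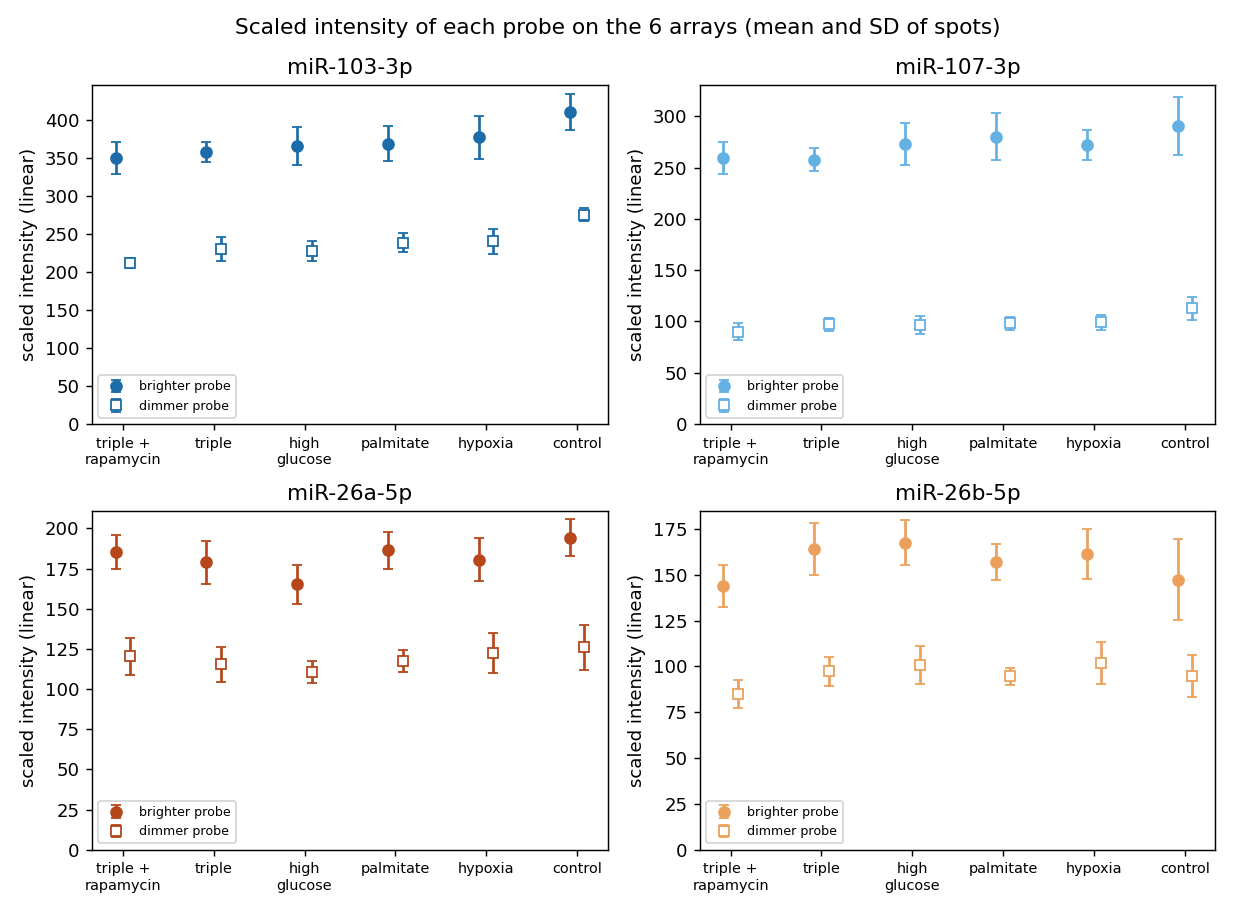
Scaled intensity on a linear axis from 0 for the brighter (filled) and dimmer (open) probe of each member on the 6 arrays, with bars for the SD of spots. miR-103-3p, miR-107-3p and miR-26a-5p were highest in the control on both probes, while miR-26b-5p was lowest in triple stimuli plus rapamycin on both.

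The members varied little over the 6 arrays. On the log2 scale the SD over arrays was 0.08 for miR-103-3p, 0.07 for miR-107-3p, 0.08 for miR-26a-5p and 0.09 for miR-26b-5p, against a median of 0.12 over the 154 miRNAs detected on all arrays. Of the 154, 34 had a smaller SD than miR-103-3p, 16 than miR-107-3p, 29 than miR-26a-5p and 40 than miR-26b-5p. The highest array was above the lowest by 1.17-fold for miR-103-3p, 1.13-fold for miR-107-3p, 1.18-fold for miR-26a-5p and 1.17-fold for miR-26b-5p, against a median of 1.25-fold for all.

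That place in the order depended on the scaling. With the arrays scaled to the median of the same probes, 81 of 154 miRNAs varied less than miR-103-3p, 76 less than miR-107-3p, 75 less than miR-26a-5p and 39 less than miR-26b-5p. With no scaling these numbers were 12 for miR-103-3p, 17 for miR-107-3p, 31 for miR-26a-5p and 79 for miR-26b-5p.

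The other arm of each hairpin gave no measurable signal. miR-103-1-5p, miR-107-5p, miR-26a-1-3p, miR-26a-2-3p and miR-26b-3p are measured by 2 to 4 probes each, and 0% of their spots were well above background on any array. Their mean intensities, before scaling, lay between -4.44 and 4.83, while the lowest detected probe of any miRNA lay between 19.5 and 22.0. These strands were therefore not detectable in any of the conditions, and miR-103-2-5p was not analysed here.

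Differences between 2 arrays were small for all members. A call needed detection on both arrays and a difference of 1.5-fold or more that also exceeded 2 spot standard errors. By this rule 0 of 4 members were called in any of 7 comparisons, and also under every alternative processing. Most comparisons share the control array, so they are not independent of each other. The differences below are of log2 scaled intensity, with the standard error (SE) of the spots.

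For triple stimuli plus rapamycin minus control, miR-103-3p differed by -0.23 (SE 0.03), miR-107-3p by -0.16 (SE 0.04), miR-26a-5p by -0.07 (SE 0.03) and miR-26b-5p by -0.04 (SE 0.05). The rule called 9.15% of the 164 miRNAs detected on both arrays, with a median difference of -0.11. Of the 7 comparisons this one gave the largest miR-103-3p difference by size, and 42 of the 164 miRNAs were lower than it.

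For triple stimuli minus control, miR-103-3p differed by -0.20 (SE 0.02), miR-107-3p by -0.17 (SE 0.03), miR-26a-5p by -0.12 (SE 0.03) and miR-26b-5p by 0.16 (SE 0.06). The rule called 5.59% of 161 miRNAs here, with a median of 0.01. miR-103-3p had 21 of the 161 miRNAs below it, and miR-107-3p had 28.

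For high glucose minus control, miR-103-3p differed by -0.17 (SE 0.03), miR-107-3p by -0.09 (SE 0.04), miR-26a-5p by -0.23 (SE 0.03) and miR-26b-5p by 0.19 (SE 0.05). The rule called 6.79% of 162 miRNAs, with a median of -0.05. The miR-26 relatives lay on opposite sides of that median, with 27 miRNAs below miR-26a-5p and 133 below miR-26b-5p.

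For palmitate minus control, miR-103-3p differed by -0.16 (SE 0.03), miR-107-3p by -0.05 (SE 0.04), miR-26a-5p by -0.06 (SE 0.03) and miR-26b-5p by 0.09 (SE 0.05). The rule called 2.58% of 155 miRNAs, with a median of -0.03. On the longer probes only the miR-103-3p and miR-26a-5p differences were beyond 2 spot standard errors. On the shorter probes miR-103-3p, at -0.21 (SE 0.02), miR-107-3p, at -0.20 (SE 0.04), and miR-26a-5p, at -0.10 (SE 0.04), were beyond that error. The shorter miR-26b-5p probe was not.

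For hypoxia minus control, miR-103-3p differed by -0.12 (SE 0.03), miR-107-3p by -0.10 (SE 0.04), miR-26a-5p by -0.11 (SE 0.03) and miR-26b-5p by 0.13 (SE 0.06). The rule called 1.85% of 162 miRNAs, and the median of all was -0.11. miR-103-3p, miR-107-3p and miR-26a-5p thus lay within 0.02 of the median of all miRNAs, and miR-26b-5p had 144 of the 162 below it.

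For triple stimuli plus rapamycin minus triple stimuli, the comparison that adds rapamycin, miR-103-3p differed by -0.03 (SE 0.02), miR-107-3p by 0.01 (SE 0.02), miR-26a-5p by 0.05 (SE 0.03) and miR-26b-5p by -0.19 (SE 0.04). The rule called 3.8% of 184 miRNAs, with a median of -0.07. On the longer probes miR-26b-5p was the one member beyond 2 spot standard errors, with 36 of the 184 miRNAs lower. On the shorter probes miR-103-3p, at -0.12 (SE 0.03), and miR-107-3p, at -0.11 (SE 0.04), were also beyond that error. The shorter miR-26b-5p probe gave -0.19 (SE 0.04), and that of miR-26a-5p gave 0.06 (SE 0.04).

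For triple stimuli minus hypoxia, which adds high glucose and palmitate at 1% oxygen, miR-103-3p differed by -0.08 (SE 0.03), miR-107-3p by -0.08 (SE 0.02), miR-26a-5p by -0.01 (SE 0.03) and miR-26b-5p by 0.02 (SE 0.04). The rule called 8.77% of 171 miRNAs, with a median of 0.10. miR-107-3p had 23 of the 171 miRNAs below it and miR-103-3p had 25.

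These directions depended in part on the scaling. Without scaling between arrays, the longer probes of miR-103-3p, miR-107-3p and miR-26a-5p were above the control by at most 0.30 on all 5 stimulated arrays. The exception was miR-103-3p in palmitate, at -0.05. The longer miR-26b-5p probe was above the control by 0.20 to 0.47. The shorter miR-103-3p probe, at an unscaled 240 in the control, was higher only in high glucose, at 242. The shorter miR-107-3p probe, at 98.0 in the control, was lower in palmitate, at 91.9, and in hypoxia, at 97.9. The control array was the dimmest of the 6 before scaling, and the part of that in these differences was not tested.

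**Figure D2:**
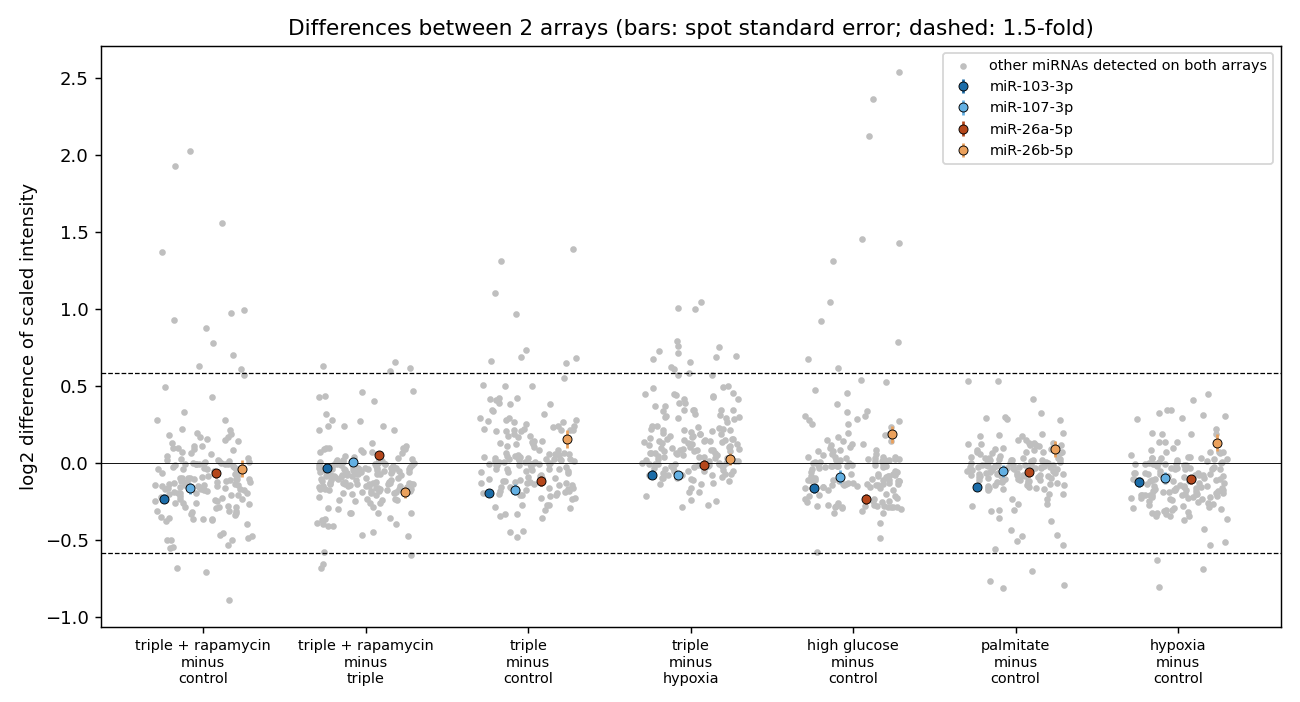
Log2 difference of scaled intensity in 7 comparisons of 2 arrays for the 4 members (coloured, with bars for the spot standard error) and for the other miRNAs detected on both arrays (grey), with dashed lines at 1.5-fold. The members lay between -0.23 and 0.19 and crossed neither line.

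The relatives of a pair can be compared as a ratio within 1 array, in which a common scaling factor cancels. The value given is the change of the log2 ratio of miR-26b-5p to miR-26a-5p, for the longer probes, followed by its range over the 4 combinations of their probes. In high glucose minus control it changed by 0.42 (SE 0.06), with a range of 0.28 to 0.42. In triple stimuli minus control it changed by 0.27 (SE 0.06), with a range of 0.16 to 0.28. In hypoxia minus control it changed by 0.24 (SE 0.06), with a range of 0.15 to 0.24. In these 3 comparisons all 4 probe combinations were above 0 by more than 2 spot standard errors.

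In palmitate minus control the ratio changed by 0.15 (SE 0.06), and 2 of 4 combinations were beyond 2 spot standard errors. In triple stimuli plus rapamycin minus control it changed by 0.03 (SE 0.06), and no combination was beyond that error. In triple stimuli plus rapamycin minus triple stimuli it changed by -0.24 (SE 0.05), with a range of -0.26 to -0.24 and all 4 combinations beyond 2 spot standard errors. The ratio of miR-26b-5p to miR-26a-5p on the rapamycin array thus differed from the control's by less than 2 spot standard errors, and from that of triple stimuli alone by more. In triple stimuli minus hypoxia it changed by 0.04 (SE 0.05).

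Over 8 ways of processing the scanner values, the ratio change ran from 0.29 to 0.42 for high glucose minus control and from 0.15 to 0.27 for triple stimuli minus control. It ran from 0.10 to 0.24 for hypoxia minus control, and from -0.25 to -0.18 for triple stimuli plus rapamycin minus triple stimuli. Ways that differ only by a factor per array leave the ratio unchanged by construction. Only quantile normalization, normexp background correction and the probe summaries could move it. In the authors' deposited table the value of 0.36 appeared under palmitate and 0.13 under high glucose, the exchange of names described above. With 1 array per condition, these ratio changes have no test, and the 5 comparisons with the control share the array on which the miR-26b-5p spots were most spread.

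The ratio of miR-107-3p to miR-103-3p moved less. Its changes ran from -0.09 to 0.21 over all probe combinations and comparisons, and in each comparison at most 2 of 4 combinations were beyond 2 spot standard errors. Over the 6 arrays Pearson's r of log2 scaled intensity was 0.88 between miR-103-3p and miR-107-3p and -0.78 between miR-26a-5p and miR-26b-5p. These are descriptions of 6 arrays that share 1 scaling and overlapping treatments. The miR-103-3p and miR-107-3p probes have 1 mismatch to the relative, against 2 or 3 for the miR-26 probes. How much signal from the relative enters these ratios and r values was not tested.

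**Figure D3:**
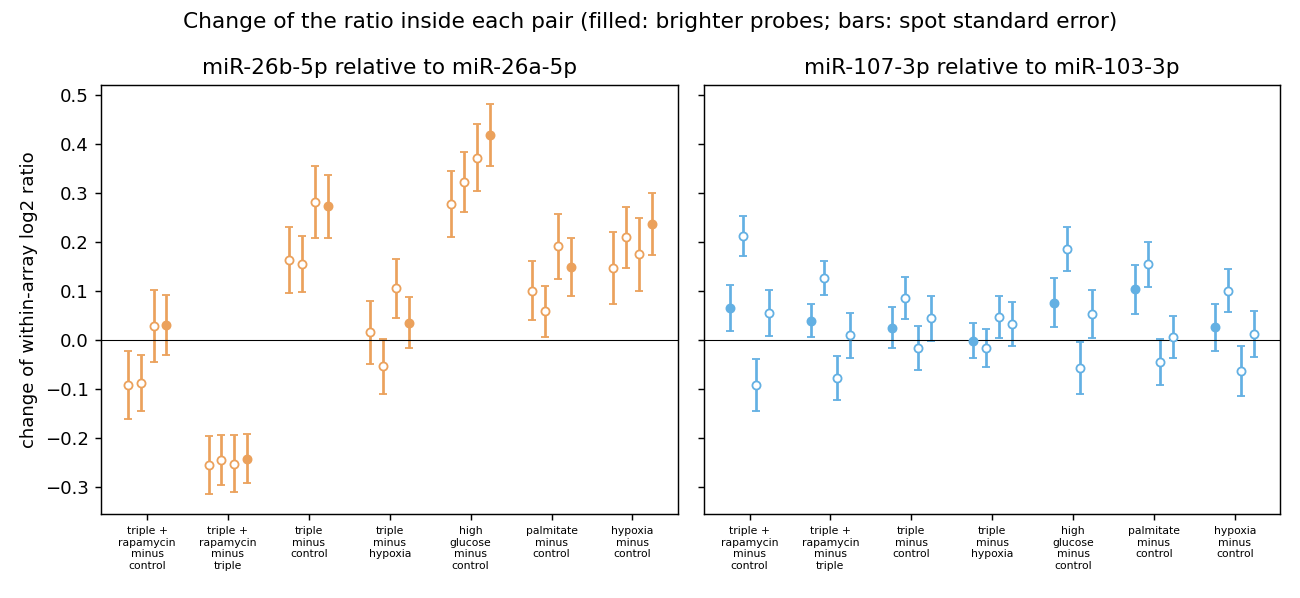
Change of the within-array log2 ratio of miR-26b-5p to miR-26a-5p (left) and of miR-107-3p to miR-103-3p (right) in 7 comparisons, for 4 probe combinations each (filled for the brighter probes, bars for the spot standard error). The miR-26 ratio was highest in high glucose minus control, at 0.42, and lowest in triple stimuli plus rapamycin minus triple stimuli, at -0.24 for the brighter probes.

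Oxygen was also compared over all arrays, the 3 at 1% against the 3 at 20%, with limma over the 154 miRNAs detected on all 6. The other treatments enter the spread, and rapamycin was present at 1% oxygen only. High glucose and palmitate were both on the triple stimuli arrays with and without rapamycin at 1% oxygen, but on separate arrays at 20%. They can therefore also enter the difference. No member passed the threshold of 0.05 on the adjusted p. miR-103-3p averaged 8.50 ± 0.06 at 1% and 8.58 ± 0.09 at 20% oxygen on the log2 scale (SD, n = 3 each), a difference of -0.08 (SE 0.07, limma adjusted p = 0.93). miR-107-3p averaged 8.04 ± 0.04 at 1% and 8.13 ± 0.04 at 20% oxygen, a difference of -0.10 (SE 0.06, limma adjusted p = 0.884). On the longer probe of miR-107-3p all 3 arrays at 1% were below all 3 at 20%, and 11% of the 154 miRNAs had such groups without overlap. The gap, between high glucose and hypoxia, was 0.01 (spot SE 0.03). On the shorter probe the groups overlapped. There hypoxia, at a scaled intensity of 99.1, lay above palmitate, at 98.1, and high glucose, at 96.6.

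miR-26a-5p averaged 7.50 ± 0.03 at 1% and 7.50 ± 0.12 at 20% oxygen, a difference of 0.00 with a 95% interval of -0.19 to 0.19 (limma adjusted p = 1.0). miR-26b-5p averaged 7.29 ± 0.10 at 1% and 7.29 ± 0.09 at 20% oxygen, a difference of -0.01 with an interval of -0.22 to 0.20 (limma adjusted p = 0.997). The intervals were -0.26 to 0.10 for miR-103-3p and -0.25 to 0.05 for miR-107-3p, so all 4 lay inside 1.5-fold in either direction. Over all miRNAs, 0% of the 154 passed in limma, with 7 at an unadjusted p under 0.05, and the lowest adjusted p was 0.408. The smallest of the members' adjusted p over 18 ways of fitting was 0.567, for miR-107-3p.

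miR-210-3p, the best known target of hypoxia-inducible factor among miRNAs, was detected on 4 arrays only and so was outside the 154. In a fit of the 198 miRNAs with detection on any array it was the 1 that passed, with 7.83 ± 0.18 at 1% and 4.59 ± 0.04 at 20% oxygen on the log2 scale (SD, n = 3 each, limma adjusted p = 8.26e-06). At 20% oxygen it was detected on 1 of 3 arrays, so the size of its difference rests on the detection floor.

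High glucose was compared in the same way, with the high glucose, triple stimuli and triple stimuli plus rapamycin arrays against the palmitate, hypoxia and control arrays. Rapamycin was present only on the side with high glucose, where the arrays with all 3 stimuli also had palmitate and 1% oxygen. No member passed, against 9.74% of the 154 miRNAs, 13 higher and 2 lower. That count of 15 dropped to 1 without the triple stimuli plus rapamycin array, 5 without the control and 6 without hypoxia. With the high glucose and palmitate names exchanged, the count was 0. miR-103-3p averaged 8.49 ± 0.03 with and 8.59 ± 0.08 without high glucose on the log2 scale (SD, n = 3 each), a difference of -0.11 (SE 0.07, limma adjusted p = 0.48). Its groups did not overlap, which held for 29.2% of the 154, and the gap between palmitate and high glucose was 0.01 (spot SE 0.03). miR-107-3p differed by -0.09 (SE 0.06, limma adjusted p = 0.499), miR-26a-5p by -0.08 (SE 0.07, limma adjusted p = 0.614) and miR-26b-5p by 0.03 (SE 0.08, limma adjusted p = 0.95). The 95% intervals were -0.27 to 0.06 for miR-103-3p, -0.24 to 0.06 for miR-107-3p, -0.25 to 0.09 for miR-26a-5p and -0.17 to 0.22 for miR-26b-5p.

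Scaling to the median in place of the 75th percentile brought 3 members past the threshold in this comparison. There miR-103-3p differed by -0.27 (limma adjusted p = 0.0189), miR-107-3p by -0.26 (limma adjusted p = 0.0269) and miR-26a-5p by -0.25 (limma adjusted p = 0.0354). The same scaling moved the median of all 154 miRNAs to -0.15, against 0.02 in the first fit. It called 8 miRNAs higher and 31 lower, quantile normalization 6 higher and 17 lower, and no scaling 48 higher and 0 lower. Without scaling the median of all was 0.22 and the members differed by 0.09 for miR-103-3p, 0.11 for miR-107-3p, 0.11 for miR-26a-5p and 0.23 for miR-26b-5p.

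The high glucose arrays fell in both slide rows. With oxygen, and so slide row, as a covariate, the differences were -0.09 for miR-103-3p, -0.07 for miR-107-3p, -0.10 for miR-26a-5p and 0.03 for miR-26b-5p. In row 1, high glucose minus the mean of palmitate and control was -0.09 for miR-103-3p, -0.06 for miR-107-3p, -0.20 for miR-26a-5p and 0.14 for miR-26b-5p. In row 2, the mean of the arrays with all 3 stimuli minus hypoxia was -0.09 for miR-103-3p, -0.07 for miR-107-3p, 0.01 for miR-26a-5p and -0.07 for miR-26b-5p. The miR-103-3p and miR-107-3p differences were thus alike in both rows, and those of the miR-26 pair changed sign between rows. With the high glucose and palmitate names exchanged, the miR-26 differences took the other sign, at 0.03 for miR-26a-5p and -0.04 for miR-26b-5p, while miR-103-3p stood at -0.10 and miR-107-3p at -0.07.

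**Figure D4:**
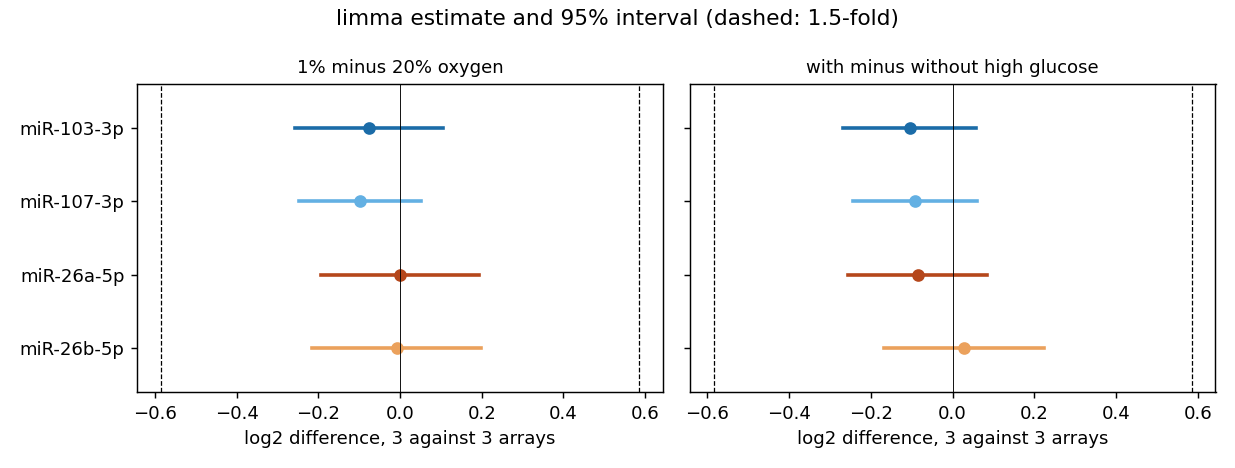
limma estimate (point) and 95% interval (line) of the log2 difference for 1% minus 20% oxygen (left) and with minus without high glucose (right), 3 arrays against 3, for the 4 members, with dashed lines at 1.5-fold. All 8 intervals include 0 and stay inside the dashed lines, the lowest bound being -0.27 for miR-103-3p and high glucose.

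The members were set beside 2 lists of miRNAs from the same fields, 17 tied to low oxygen and 19 tied to insulin signalling. Of these, 16 and 18 were found on the array under the names in the lists, and 11 and 12 were detected on all 6 arrays. The 2-array rule called 0 miRNAs of either list in any of the 7 comparisons. miR-210-3p of the low-oxygen list was not detected on the control array. The rule therefore could not test it against the control, and the values below leave it out. In hypoxia minus control the low-oxygen list had a median of -0.03 and the insulin list of -0.08, against -0.11 for all miRNAs. The low-oxygen list ran from -0.23 for miR-155-5p, an inflammatory miRNA, to 0.41 for miR-322-5p, a member of the miR-15/16 family. In the insulin list let-7b-5p was lowest, at -0.22, and miR-29c-3p highest, at 0.31, which is from a family that represses collagens.

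By limma, 0 of 11 and 0 of 12 passed for oxygen, and 1 of 11 and 0 of 12 for high glucose. That one was miR-181b-5p, which was lower by 0.34 on the arrays with high glucose (SE 0.08, limma adjusted p = 0.0448). It passed in 5 of 17 alternative fits, and in none that left out an array, with a difference below 0 in all of them and limma adjusted p-values between 0.00602 and 0.973. With the high glucose and palmitate names exchanged it differed by -0.19 (limma adjusted p = 0.909). The medians of the lists for high glucose were 0.01 and -0.01, against 0.02 for all 154.

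By Pearson's r over the 6 arrays, among the 150 other miRNAs detected on all, the miRNAs most like miR-103-3p were miR-24-3p (0.96), miR-182-5p (0.95) and miR-30e-5p (0.94). Those most like miR-107-3p were miR-185-5p (0.96), miR-30c-5p (0.95) and miR-181b-5p (0.92). miR-26a-5p was most like miR-331-3p (0.97), miR-183-5p (0.92) and miR-125a-5p (0.90). miR-26b-5p was most like miR-98-5p (0.94), miR-5117-3p (0.89) and miR-7a-5p (0.84). In neither pair did the relatives have any of these nearest miRNAs in common.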

How the data were processed

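Per the file headers, spots of each array were read by Agilent Feature Extraction 10.7.3.1, and its deposited intensity values are background-subtracted, on a linear scale and not normalized between arrays. The deposited value table holds a linear signal per miRNA that the authors computed as the summed intensity divided by 1 factor per array, as far as the values show (68.7% to 73.5% of miRNAs within 0.1%).

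A probe's value was the mean of its spots without outlier flags (4.26% to 4.44% of spots had one), scaled to the array's 75th percentile over 281 probes detected on all 6 arrays, floored at the lowest detected signal and moved to log2. Detection of a probe required a share of 0.5 or more of its spots to be well above background, and the brightest probe stood for each miRNA. The median spot coefficient of variation was 8.67% to 10.7% per array. The number of arrays limits the precision.

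Pairs of arrays have no replicates and no test. Groups of 3 arrays were compared with limma 3.58.1 (lmFit, eBayes, two-sided, Benjamini-Hochberg) in R 4.3.3, tested on simulated data. p-values measure the spread between these arrays. The members and lists were chosen with earlier results of these data known. The text names the 4 members, their other arms, the 3 most alike miRNAs each, and the extremes or passing miRNAs of both lists. Chromosome positions are from RefSeq on GRCm38.p6; the array design names mm9 and none of its coordinates were used.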

Additional observations from a re-analysis of the deposited data

How the results depend on the processing

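The count of 0 of 4 members called in the 7 comparisons of 2 arrays held under every alternative scaling, background correction, probe summary and table tried. No member passed limma in the first fit, so no called value could turn. Over 18 ways of fitting, the difference of each member took both signs in both limma comparisons. For high glucose it ran from -0.27 to 0.09 for miR-103-3p and from -0.26 to 0.11 for miR-107-3p. It ran from -0.25 to 0.11 for miR-26a-5p and from -0.14 to 0.23 for miR-26b-5p. In the oxygen comparison 0 miRNAs passed first, and 1 passed with the summed signal, with the deposited table and with miRNAs detected on at least 1 array, which tests miR-210-3p; leaving out each array in turn gave 0 each time. In the high glucose comparison 15 of 154 passed (13 higher and 2 lower), against 39 with scaling to the median, 23 with quantile normalization, 48 with no scaling, 9 with normexp, and 0 with the deposited table and with the high glucose and palmitate names exchanged. Scaling to the 75th percentile of all probes gave 8 higher and 3 lower, and normexp 9 higher and 0 lower. Leaving out 1 array gave 1 to 15, with 1 without triple stimuli plus rapamycin, 5 without the control and 6 without hypoxia; a smaller side then has 2 arrays. The members passed only with scaling to the median, 3 of 4 of them, in that comparison. The cause was not tested. No paired analysis was possible because each condition has 1 array and the labels give no replicate numbers. Of the other member values under an alternative, 126 moved by more than their error, 235 did not and 3 came past the threshold. Signal over background did not limit the members, whose spots were all above background, while it limits their other arms and miR-210-3p at 20% oxygen.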

Other observations

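The shorter and longer probes of a member did not always give the same difference. For miR-103-3p, miR-107-3p and miR-26b-5p, the longer probe gave the higher log2 difference from the control in all 5 comparisons with it. In triple stimuli plus rapamycin minus control, the longer and shorter probes gave -0.23 and -0.38 for miR-103-3p, -0.16 and -0.32 for miR-107-3p, and -0.04 and -0.16 for miR-26b-5p. For miR-26a-5p they gave -0.07 and -0.07 there. Over all 118 miRNAs with at least 2 probes detected on every array, the brighter probe gave the higher difference from the control in 44.9% (hypoxia) to 56.8% (triple stimuli plus rapamycin) of miRNAs. The comparisons share 1 control array, and these values carry no test.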
